A study of Mus musculus with 5 samples.

Results

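Collagens are the proteins that give cartilage, bone, tendon and basement membranes their fabric, and each collagen molecule is a trimer wound from alpha chains that are the products of separate genes. The genes described here were the 43 of 29818 measured genes whose symbol consists of Col, a number, the letter a and a number. Col10a1, the type X chain, was left out because it served as a marker of hypertrophic chondrocytes. The rule uses the symbol alone. The study prepared single cells from the cartilage at the ends of the femur and tibia of 5 mouse pups and made 1 single-cell RNA library per pup on the BD Rhapsody system. Pups 1 and 2 carried the genotype label WT, and pups 3, 4 and 5 carried the mutant label, with a conditional Trpv4 knock-in allele encoding p.R594H that was recombined by a Col2a1-Cre transgene. The Col2a1 promoter drives Cre in chondrocytes, and all 5 pups were littermates by the study's methods. Trpv4 encodes a calcium-permeable channel, and a substitution in it cannot be checked from gene counts. All pups had the strain label C57BL/6J, and the sources used here do not give whether the pups with the WT label carried Cre or the unrecombined allele. The sample labels give the age as postnatal day 5 and the series design gives postnatal day 3. Soft tissue was removed by dissection and by a digestion in collagenase I before the cartilage cells were released in collagenase II.

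In cartilage, type II collagen forms thin fibrils that carry type IX collagen on their surface and type XI collagen within. In bone, tendon and the perichondrium, the fibrous sheath around cartilage, the fibrils are mainly of type I collagen, mixed with types III and V. Type IV collagen forms the meshwork of basement membranes, type VI forms beaded filaments close to cells, and the FACIT collagens (fibril-associated collagens with interrupted triple helices, such as types IX, XII, XIV and XXII) attach to fibrils made by other types. Mutations in the genes for types II, IX and XI cause chondrodysplasias, and mutations in those for type I cause brittle bone disease.

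The 5 libraries held 84382 cells and between 117746735 and 183322632 unique molecular identifiers (UMIs, each standing for 1 captured RNA molecule), and 82516 cells were kept. The median kept cell held 8521 and 9261 UMIs in the WT pups and 6000 to 7016 in the mutant pups. Cells were clustered without the collagen genes described here, and 41 of 47 clusters were named from marker genes. Col10a1 was not left out of the clustering and was a marker of hypertrophic chondrocytes. All named chondrocyte classes together held 43420 cells, 52.6% of those kept, although every library was labelled as chondrocytes. The others included tendon or ligament cells (14370), perichondrial cells (8731), blood and immune cells (2521), pericytes (897), synovial cells (843), endothelial cells (524), skeletal muscle cells (417), osteoblast lineage cells (280) and Schwann cells (106). Hypertrophic chondrocytes numbered 300. The 6 unnamed clusters, of 3554, 3436, 1786, 1488, 74 and 69 cells, were not counted in any of these classes. The cluster of 1786 cells scored best for proliferating chondrocytes. It stayed unnamed because its leading genes held more markers of resting chondrocytes. The 52.6% is therefore the share of the named chondrocyte classes only. The class called proliferating here held 10796 cells and joined the cluster named for proliferating chondrocytes (4855 cells) with 1 named for Tgfbi-expressing chondrocytes (3135) and 2 named for prehypertrophic chondrocytes (2806). Levels are given as CPM (counts-per-million), here the UMIs of a gene relative to the UMIs of all genes in the cells of a class in a pup, as mean ± SD over 5 pups. UMI levels were compared between classes for the same gene, and ratios of partner genes between classes, and neither was read as a ratio of chains in a trimer. Pooled over pups, the unnamed cluster of 1786 cells held 57769 CPM of Col2a1 and 2460 CPM of Col1a1. The unnamed cluster of 3554 cells was high in both genes and is described below. In those of 3436 and 1488 cells Col2a1 was at 6796 and 3797 CPM, and Col1a1 at 82808 and 81006 CPM.

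Collagen RNA made up a large part of what the matrix-forming cells contained. The 43 genes together took 25.0% of all UMIs in tendon or ligament cells (22.7% to 28.7% over the pups), 24.0% in osteoblast lineage cells, 18.2% in resting, 15.8% in articular, 13.1% in proliferating and 11.3% in hypertrophic chondrocytes, and 16.9% in perichondrial cells. Blood and immune cells, which do not build such matrix, still held 5.00% (3.88% to 6.32%). By blood class the mean was 2.07% in mast cells, 2.91% in macrophages and 10.4% in erythroid cells. For the 2 most abundant members the makeup of those collagen UMIs was close to that of all cells pooled, with Col2a1 at 35.5% of them against 36.0% and Col1a1 at 23.4% against 23.0%, whereas Col4a1 took 0.256% against 0.10%. The pooled level in blood and immune cells is therefore given beside the levels of the members. A level at or under that mean was not read by itself as production by the class. Of the 43 genes, 38 reached a mean of 10 CPM in at least 1 named class. Highest and second classes are ranked among the named classes only. For 8 of the 38, namely Col3a1, Col8a1, Col9a2, Col13a1, Col20a1, Col22a1, Col26a1 and Col28a1, every pup's level in the highest class lay above every pup's level in the second. For the other 30 the highest and second classes overlapped between pups.

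**Figure D1:**
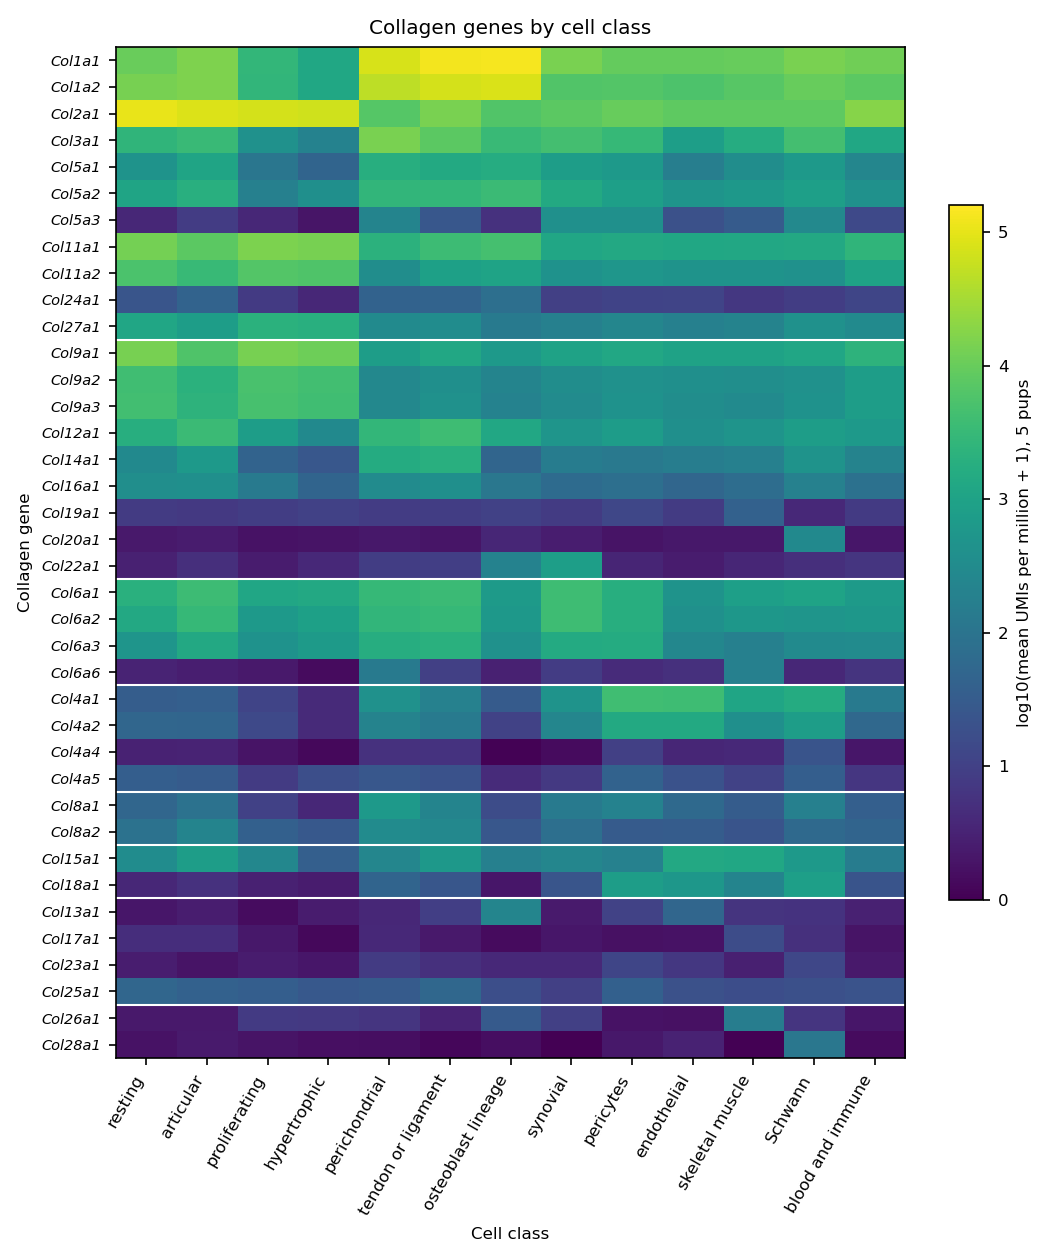
Heat map of the mean level of each of the 38 described collagen genes (rows) in 13 cell classes (columns), colored by log10 of the mean CPM over 5 pups plus 1. The cartilage genes, from Col2a1 with a mean of 105781 CPM in resting chondrocytes, and the type I genes, with 135473 CPM for Col1a1 in osteoblast lineage cells, filled different columns, and Col20a1 and Col28a1 stood out in the Schwann cell column.

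The cartilage fibril genes were highest in chondrocytes, but not all in the same zone. Col2a1, the only chain of type II collagen, was highest in resting chondrocytes, with 106683 and 95467 CPM in the WT pups and 98706, 114157 and 113892 CPM in the mutant pups (105781 ± 8561, SD, n = 5). Its level was 85085 ± 19234 CPM in articular, 74582 ± 6713 CPM in the joined proliferating class and 65305 ± 2786 CPM in hypertrophic chondrocytes. Within the proliferating class, Col2a1 was at 77350 ± 6431 CPM in the cluster of that name, 85836 ± 14190 CPM in the Tgfbi-expressing and 66528 ± 3467 CPM in the prehypertrophic chondrocytes. Resting exceeded articular chondrocytes in 5 of 5 pups, yet the ranges of these classes overlapped. The articular level was 65921 and 62220 CPM in WT pup 2 and mutant pup 3, and 98434 to 99772 CPM in the other 3 pups. Blood and immune cells held 17818 CPM of Col2a1. Tendon or ligament cells (14014 CPM), perichondrial cells (6606 CPM) and osteoblast lineage cells (6065 CPM) were all below that mean, which pooled classes from 3030 CPM in mast cells through 10006 CPM in macrophages to 38340 CPM in erythroid cells. The tendon or ligament mean held 1 cluster apart from the other 5, with 2396 of the 14370 cells and the heat shock genes Hspa1b, Hspa1a and Hsph1 in the lead, whose Col2a1 was at 51299 and 35221 CPM in the WT pups and 23216, 35707 and 47893 CPM in the mutant pups, above the blood and immune mean. Without that cluster the tendon or ligament cells held 8333 ± 3818 CPM.

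Col9a1, which encodes 1 of the 3 chains of type IX collagen, was shared between the proliferating and resting classes. Proliferating chondrocytes held 13195 and 12974 CPM in the WT pups and 13009, 14066 and 13932 CPM in the mutant pups. Resting chondrocytes held 12740, 12705, 12902, 13848 and 14814 CPM in the same order of pups. The ranges overlapped almost wholly, and the means were 13435 and 13402 CPM. In articular chondrocytes, by contrast, Col9a1 was at 5906, 5154, 4885, 6620 and 6568 CPM, below every pup's resting level. Col9a2 reached 5055 ± 251 CPM and Col9a3 4855 ± 464 CPM in proliferating chondrocytes, and the second class was the hypertrophic class for Col9a2 (4243 CPM) and the resting class for Col9a3 (4231 CPM). Blood and immune cells held 2305 CPM of Col9a1, 798 CPM of Col9a2 and 786 CPM of Col9a3.

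The type XI genes and Col27a1, a fibrillar gene of cartilage, were also highest in the proliferating class. Col11a1 was at 14941 and 14942 CPM in the WT pups and 14368, 13828 and 14927 CPM in the mutant pups, with hypertrophic chondrocytes next at 13895 CPM. Col11a2 was at 7356 and 7570 CPM in the WT pups and 6183, 5477 and 6305 CPM in the mutant pups, and the labels did not overlap. The Col11a1 level was 15091 CPM in the cluster named proliferating, 15375 CPM in Tgfbi-expressing and 13645 CPM in prehypertrophic chondrocytes. Col27a1 was at 1995, 2000, 2274, 2161 and 2215 CPM, followed by 1930 CPM in hypertrophic and 1171 CPM in resting chondrocytes, against 313 CPM in blood and immune cells. Outside cartilage, Col11a1 was above its blood and immune mean in osteoblast lineage and tendon or ligament cells, where the class means of Col9a1, Col9a2 and Col9a3 were below theirs. In the tendon or ligament cluster led by Hspa1b, however, these 3 genes were at 3052, 839.9 and 996 CPM, above blood and immune means of 2305, 798 and 786 CPM. Osteoblast lineage cells held 2517, 5453, 3991, 4790 and 5937 CPM of Col11a1 against a mean of 2531 CPM in blood and immune cells, and WT pup 1 lay just under that mean. Tendon or ligament cells held 3728 CPM. Perichondrial cells were uneven in Col11a1. A cluster of 3647 of them, led by Igfbp3, Col8a1 and Epha3, held 3389 ± 434 CPM (2818 to 3969 CPM over the pups), above the blood and immune mean. The other perichondrial cells held 1188 ± 406 CPM.

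The promoters of the partner genes Col11a1 and Col11a2 are shown because the genes lie on different chromosomes while their levels moved together over the 17 classes (r = 0.963 of log2 CPM, a description only, since the classes share libraries). Those of Col5a3 and Col3a1 are shown for contrast, as fibrillar genes whose highest class was synovial and perichondrial. Each is the 150 bases before the RefSeq start of the gene on GRCm38.p6, read 5′ to 3′ on the gene's strand from RefSeq. Capitals mark TATAAA, searched on the gene's strand, or CCAAT, searched on both strands (ATTGG when on the opposite strand). The motifs share no bases. The windows are chr3:114030390-114030539 (plus strand) for Col11a1, chr17:34038988-34039137 (plus strand) for Col11a2, chr9:20815068-20815217 (minus strand) for Col5a3 and chr1:45311388-45311537 (plus strand) for Col3a1, and none overlaps an annotated exon.
Col11a1: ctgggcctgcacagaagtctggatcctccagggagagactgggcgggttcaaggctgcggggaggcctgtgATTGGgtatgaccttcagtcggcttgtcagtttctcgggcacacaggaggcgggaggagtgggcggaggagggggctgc
Col11a2: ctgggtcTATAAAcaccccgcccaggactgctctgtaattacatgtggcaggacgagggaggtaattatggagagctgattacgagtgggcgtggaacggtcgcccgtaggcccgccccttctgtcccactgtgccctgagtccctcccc
Col5a3: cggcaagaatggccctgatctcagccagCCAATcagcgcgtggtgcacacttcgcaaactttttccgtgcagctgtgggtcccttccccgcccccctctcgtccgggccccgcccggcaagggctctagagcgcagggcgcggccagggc
Col3a1: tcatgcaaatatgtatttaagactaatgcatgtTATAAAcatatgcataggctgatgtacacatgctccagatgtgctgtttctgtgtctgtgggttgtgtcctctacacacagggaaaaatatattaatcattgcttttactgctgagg

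RefSeq promoters were matched for 34 of the 43 genes, with 37 promoters in all. TATAAA occurred in 3 of the 37 (Col3a1, Col11a2 and Col17a1) and in 4.84% of all 32851 promoters of this length. CCAAT occurred on either strand in 8 of the 37 (Col1a2, Col4a1, Col4a2, Col5a3, Col9a1, Col11a1, Col16a1 and Col17a1) and in 24.5% of all promoters. Col11a1 and Col11a2, alike in level over the classes, thus did not hold the same motif in these windows. The windows were not placed alike, however. That of Col11a2 ends at base 34039137, while the GENCODE M21 annotation of GRCm38 starts the gene at 34039437. The other windows shown abut the GENCODE M21 starts of their genes. Which start the cells used was not tested.

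Between all chondrocytes and perichondrial cells, 42 members were tested with the pup as a block, and a gene was called when its adjusted p was under 0.05 and its change at least 1 on the log2 scale. The classes were drawn from the same cells, by genes other than the members. These adjusted p-values therefore describe how steady a difference was over the 5 pups. Higher in chondrocytes were 8 members (15.6% of all genes tested were called higher): Col2a1, Col9a1, Col9a2, Col9a3, Col11a1, Col11a2, Col27a1 and the scarce Col4a6. The log2 differences of the 7 cartilage genes ran from 2.26 for Col27a1 to 4.08 ± 0.24 (SE) for Col11a2 (adjusted p = 8.9e-05), with Col2a1 at 3.81 ± 0.19 (adjusted p = 4.2e-05). Lower in chondrocytes were 21 members (13.5% of all genes were called lower). These included Col1a1 (-3.30), Col3a1 (-3.06 ± 0.05, adjusted p = 1.09e-12), Col5a3 (-6.00), Col6a6 (-6.34), Col8a1 (-4.04), Col14a1 (-2.78) and Col18a1 (-4.12). The median log2 difference was -0.89 over the 42 members and 0.03 over all genes tested.

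Within cartilage fewer members differed. Between resting and articular chondrocytes, 2 of 41 tested members were called higher in resting cells (8.02% of all genes), namely Col9a1 (log2 1.25 ± 0.07, adjusted p = 6.92e-06) and the scarce transmembrane gene Col23a1 (1.00). Another 7 were called lower (2.97% of all genes): Col5a3 (-1.46), Col6a3 (-1.34), Col8a2 (-1.25), Col5a1 (-1.23), Col15a1 (-1.18), Col6a2 (-1.11) and Col14a1 (-1.09). None of the 7 belongs to the cartilage list. Col5a3, at 7.48 CPM in articular chondrocytes, was under its blood and immune mean of 13.1 CPM.

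Between hypertrophic and proliferating chondrocytes, 3 of 39 tested members were called higher in hypertrophic cells (8.27% of all genes) and 11 lower (10.5%). Col5a2, a chain of type V collagen, rose by 1.23 ± 0.07 on the log2 scale (adjusted p = 2.16e-16), from a mean TMM-normalized CPM of 175 to 409, in 5 of 5 pups. The other higher members were Col4a5 (1.29 ± 0.19, adjusted p = 7.88e-07) and Col13a1 (1.59, adjusted p = 0.0428). Col13a1 was scarce, at 1.57 plain CPM pooled over pups in hypertrophic cells, under its blood and immune mean of 1.96 CPM. Col15a1, a multiplexin of basement membrane zones, fell most, from 243 to 37.6 TMM-normalized CPM (-2.74 ± 0.10, adjusted p = 2.86e-22). The proliferating class was uneven in this gene, with 656 ± 178 plain CPM of Col15a1 in Tgfbi-expressing chondrocytes, 228 ± 21.1 in the cluster named proliferating and 123 ± 18.7 in prehypertrophic chondrocytes. Col4a2 (-1.85), Col16a1 (-1.38), Col12a1 (-1.32), Col1a2 (-1.21), Col5a1 (-1.15) and Col3a1 (-1.01) fell with it, as did Col4a1, Col5a3, Col8a1 and Col24a1. In plain CPM, Col5a2 was at 180 in proliferating and 396 in hypertrophic cells, both under its blood and immune mean of 434 CPM, and among the 11 lower members only Col12a1, Col15a1 and Col16a1 were above that mean in the proliferating class. For Col12a1 that held through the Tgfbi-expressing chondrocytes (2475 CPM), while the cluster named proliferating (488 CPM) and the prehypertrophic chondrocytes (437 CPM) were under its blood and immune mean of 645 CPM. The part of such background in these differences was not tested. The count of 14 called members became 9 without mutant replicate 1 (pup 3), which held 106 of the 300 hypertrophic cells. Against only the cluster named proliferating, a comparison chosen after the data were seen, 2 of 31 tested members were called higher (10.3% of all genes) and 10 lower (10.6%). Col5a2 (1.51), Col4a5 (1.15), Col15a1 (-2.60) and Col16a1 (-1.38) were among the 11 called in both. Col12a1 (-0.65 ± 0.08, adjusted p = 4.6e-07) passed the p threshold there but was under the size required.

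Type I collagen RNA was highest in osteoblast lineage and tendon or ligament cells. Col1a1, which encodes the major chain, was at 108158 and 130500 CPM in osteoblast lineage cells of the WT pups and at 147634, 152113 and 138958 CPM in those of the mutant pups (135473 ± 17376). In tendon or ligament cells it was at 115231, 114651, 117537, 152100 and 137236 CPM (127351 ± 16694). These classes overlapped, and perichondrial cells followed at 77429 CPM. Col1a2, which encodes the minor chain, had the same order, with 78941 ± 6638 CPM in osteoblast lineage and 73905 CPM in tendon or ligament cells. Synovial cells held 14419 CPM of Col1a1, close to the 11737 CPM of blood and immune cells.

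The genes of type III and type V collagens, which join type I fibrils, differed in the class of their highest mean. Among the named classes Col3a1 was highest in perichondrial cells, at 12805 and 15700 CPM in the WT pups and 16080, 13948 and 12528 CPM in the mutant pups. No pup's tendon or ligament level (6506 to 9640 CPM) reached that range, and blood and immune cells held 1264 CPM. The perichondrial mean was 14212 CPM, and an unnamed cluster of 1488 cells held 15014 CPM pooled over pups. Col5a1 had its highest class mean in perichondrial cells as well (1902, 1856, 1861, 1823 and 1710 CPM), with 1695 CPM in osteoblast lineage cells. The latter ranged from 940 to 2228 CPM over the pups, and perichondrial cells were higher in only 2 of 5 pups. Col5a2 was highest in osteoblast lineage cells at 2266 and 4009 CPM in the WT pups and 3663, 4049 and 3939 CPM in the mutant pups, so that WT pup 1 stood apart below the rest. Perichondrial cells held 2706 CPM and tendon or ligament cells 2765 CPM of Col5a2. In blood and immune cells Col5a1 was at 246 CPM and Col5a2 at 434 CPM. An unnamed cluster of 3436 cells led by Cilp, Thbs4 and Itih5 exceeded the highest named class for both, at 2332 CPM of Col5a1 and 3735 CPM of Col5a2.

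Col5a3, the less studied chain of type V, did not follow Col5a1 and Col5a2. It was highest in synovial cells, at 455, 452, 452, 360 and 356 CPM, and pericytes (mean 400 CPM) and Schwann cells (277 CPM) came next. Perichondrial cells held 219 ± 66.4 CPM, a mean over 4 clusters that pooled over pups ran from 29.3 to 708 CPM. It was lower in osteoblast lineage cells (4.39 CPM) and in tendon or ligament cells (25.2 CPM), against 13.1 CPM in blood and immune cells. Shares of cells were also taken after thinning each cell to 3000 UMIs. Cells with fewer were left out of all such shares, 21 in the WT pups and 2282 in the mutant pups. A Col5a3 UMI was then found in 62.6% of synovial cells, 56.8% of Schwann cells, 40.6% of pericytes and 34.2% of perichondrial cells. In blood and immune cells the share was 2.92%. The unthinned median depth was 7215 UMIs in synovial and 7202 in blood and immune cells.

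Osteoblast lineage and perichondrial cells differed in most of the members tested. Of 35 tested, 5 were called higher in osteoblast lineage cells (7.49% of all genes) and 16 lower (16.9%). Col13a1, a transmembrane collagen, was higher by 6.37 ± 0.18 on the log2 scale (adjusted p = 1.32e-18), and Col22a1, a FACIT of tissue junctions, by 4.81 ± 0.17 (adjusted p = 5.47e-17). The other 3 were Col11a2 (1.78 ± 0.28), Col11a1 (1.20 ± 0.25, adjusted p = 0.0043) and the fibrillar gene Col24a1 (1.12). Col11a2 at 1028 CPM lay near the 1014 CPM of blood and immune cells. For Col11a1 the perichondrial side joined unlike clusters, at 3389 CPM in the one led by Igfbp3, Col8a1 and Epha3 and 1188 CPM in the other cells. Col1a1 (0.96 ± 0.13, adjusted p = 1.21e-06) and Col1a2 (0.90) passed the p threshold but were under the size required. Among the 16 lower members were Col6a6 (-6.07), Col18a1 (-5.35), Col8a1 (-5.08), Col14a1 (-4.80), Col4a1 (-4.29), Col6a1 (-2.09) and Col3a1 (-2.08).

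Col13a1 in osteoblast lineage cells was 117-fold above its level in blood and immune cells. It was at 193 and 209 CPM in the WT pups and 185, 223 and 336 CPM in the mutant pups, and mutant pup 5 stood above the others. Endothelial cells were the second named class at 37.9, 33.5, 49.0, 72.0 and 63.8 CPM. Within the tendon or ligament class, a cluster of 484 cells held 81.8 CPM pooled over pups. A Col13a1 UMI was present in 44.1% of osteoblast lineage cells thinned to 3000 UMIs (40.8% to 58.8% over the pups) and in 0.542% of blood and immune cells, and in 86.4% of osteoblast lineage cells before thinning, when their median was 14954 UMIs. Col24a1 was at 53.7, 95.2, 94.2, 58.9 and 87.5 CPM in osteoblast lineage cells and at a mean of 45.2 CPM in articular chondrocytes, against 11.1 CPM in blood and immune cells.

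Perichondrial and tendon or ligament cells were closer to each other. Of 40 members tested, 4 were called higher in tendon or ligament cells (4.22% of all genes): Col13a1 (1.70), Col11a2 (1.62 ± 0.19), Col15a1 (1.48 ± 0.05, adjusted p = 5.18e-09) and Col2a1 (1.23). The class means of Col11a2 were under its blood and immune mean of 1014 CPM in both. Another 7 were called lower (5.23%), including Col6a6 (-3.79), Col5a3 (-3.13), Col8a1 (-1.38) and Col4a1 (-1.01). The class means of Col2a1 were below its blood and immune mean in both, although 1 of the 6 tendon or ligament clusters, the one led by Hspa1b, was above it. The part of such background in these differences was not tested.

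The FACIT genes outside cartilage were divided among several classes. Col12a1, whose product coats type I fibrils, was highest of the named classes in tendon or ligament cells, at 4126, 3547, 3762, 4329 and 3849 CPM, and articular chondrocytes held 3517 CPM. An unnamed cluster of 1488 cells led by Ostn, Alpl and Lrrc15 held more, 5578 ± 638 CPM, and blood and immune cells held 645 CPM. The perichondrial cluster of 3647 cells, led by Igfbp3, Col8a1 and Epha3, held 4627 ± 315 CPM of Col12a1. The other perichondrial cells held 1140 ± 213 CPM of it. Col14a1 was at 1629, 2111, 1996, 2313 and 1444 CPM in tendon or ligament cells and 1569 CPM in perichondrial cells, against 210 CPM in blood and immune cells. The unnamed cluster of 3436 cells held 2092 CPM of it pooled over pups. By class mean, Col16a1 had almost the same level in tendon or ligament cells (383 CPM), articular (382 CPM) and resting chondrocytes (376 CPM), which were not separable, and was at 85.5 CPM in blood and immune cells. The perichondrial cluster led by Igfbp3, Col8a1 and Epha3 held more, 538 ± 22.3 CPM, against 132 ± 10.3 CPM in the other perichondrial cells. Tendon or ligament clusters ran from 275 to 513 CPM pooled over pups.

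By class mean, Col22a1 was high in a pair of the named classes. It was highest in synovial cells, at 958 and 1015 CPM in the WT pups and 993, 662 and 495 CPM in the mutant pups, and osteoblast lineage cells were second at a mean of 200 CPM. The next class held 13.4 CPM, and blood and immune cells 5.29 CPM. Within the tendon or ligament class, however, a cluster of 484 cells held 144 CPM pooled over pups. A perichondrial cluster of 1363 cells held 39.5 CPM. A Col22a1 UMI was present in 79.4% of synovial cells thinned to 3000 UMIs, in 40.5% of osteoblast lineage cells and in 0.96% of blood and immune cells. Col19a1 was at 39.7 ± 17.2 CPM in skeletal muscle cells, against 6.66 CPM in blood and immune cells. Its mean of 29.1 CPM in the 55 mast cells rested on 4 UMIs and is not read as a level.

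Schwann cells, the glia of peripheral nerves, were few (106 cells, 5 to 55 per pup) but were the highest class for 5 members. Col20a1, a FACIT, was at 212 and 399 CPM in the WT pups and 262, 109 and 450 CPM in the mutant pups, and the second class held 2.59 CPM. Col28a1, a small collagen with von Willebrand factor domains, was at 149, 158, 181, 48.6 and 22.5 CPM, and the second class held 2.07 CPM. Both were higher in Schwann cells than in the second class in every pup, and blood and immune cells held 1.04 CPM of Col20a1 and 0.392 CPM of Col28a1. The others were Col18a1 (847 ± 275 CPM), Col4a4 (21.1 ± 28.4 CPM) and Col23a1 (11.9 CPM, from 6 UMIs in all). The tendon or ligament cluster of 484 cells held 54.2 CPM of Col23a1 pooled over pups. Col4a4 ranged from 0 to 67.5 CPM and exceeded pericytes, the second class, in 3 of 5 pups.

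Basement membrane collagen was highest in the cells of vessel walls, where the class called pericytes was named from smooth muscle markers as well. Col4a1 was at 3853 and 2951 CPM in pericytes of the WT pups and 4200, 3861 and 5023 CPM in those of the mutant pups (3978 ± 746), and at 3465, 3832, 4681, 4154 and 3448 CPM in endothelial cells. These classes overlapped, and blood and immune cells held 129 CPM, which the pericyte mean exceeded 30.8-fold. Schwann cells (1556 CPM) and skeletal muscle cells (1115 CPM) came next. Col4a2 followed, with 1469 ± 255 CPM in pericytes and 1420 CPM in endothelial cells, against 56.3 CPM in blood and immune cells. A Col4a1 UMI was found in 99.4% of pericytes thinned to 3000 UMIs, in 91.2% of endothelial, 93.7% of Schwann and 89.9% of skeletal muscle cells, and in 9.26% of blood and immune cells. Col4a5 was at 41.3 CPM in pericytes, 35.2 CPM in resting chondrocytes and 34.3 CPM in Schwann cells, against 5.72 CPM in blood and immune cells.

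The multiplexins Col15a1 and Col18a1, which sit at the border of basement membranes, were divided differently. Col15a1 was highest in endothelial cells, at 1211, 1239, 1537, 1629 and 1279 CPM, with 1255 CPM in skeletal muscle cells and 786 CPM in articular chondrocytes, against 154 CPM in blood and immune cells. Col18a1 was at 847 CPM in Schwann cells, 796 CPM in pericytes and 571 CPM in endothelial cells, against 21.1 CPM in blood and immune cells. Against perichondrial cells, pericytes had 4 of 35 tested members higher (11% of all genes), namely Col18a1 (3.89 ± 0.29), Col4a1 (3.02 ± 0.18, adjusted p = 1.48e-06), Col4a2 (2.59) and Col13a1 (1.66), and 13 lower (10.4%). Endothelial cells had 5 of 35 higher (12.9%), namely Col13a1 (3.80 ± 0.21), Col18a1 (3.41), Col4a1 (2.98 ± 0.11, adjusted p = 1.5e-11), Col4a2 (2.53) and Col15a1 (2.28 ± 0.19, adjusted p = 4.78e-05), and 21 lower (15.1%).

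Several type IV genes are arranged as head-to-head pairs, so that the partners are transcribed away from each other. In the GENCODE M21 annotation of GRCm38, Col4a1 (chromosome 8, 11198423 to 11312826, minus strand) and Col4a2 (11312805 to 11449287, plus strand) overlap by 22 bases at their starts, and their log2 CPM had r = 0.974 over 17 classes. Col4a5 and Col4a6 lie 1308 bases apart on chromosome X, with r = 0.786. Col4a3 and Col4a4 lie 71 bases apart on chromosome 1, with r = 0.297, and Col4a3 did not reach 10 CPM in any named class. The pairs that lie tail to tail were Col3a1 and Col5a2, 24614 bases apart (r = 0.837), and Col9a1 and Col19a1, 9205 bases apart (r = -0.36). Col6a1 and Col6a2 lie in tandem, 85161 bases apart (r = 0.969), as do Col6a4, Col6a5 and Col6a6, with r from 0.0433 to 0.664. These values describe classes drawn from the same 5 libraries and were not tested.

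Type VI collagen was spread over the connective tissue classes. Col6a1 was highest in synovial cells, at 4221, 3386, 3630, 3842 and 4587 CPM, with 3638 CPM in articular chondrocytes. Col6a2 was also highest in synovial cells (3909 ± 517 CPM), followed by tendon or ligament cells (3099 CPM). Col6a3 was highest in tendon or ligament cells, at 1963, 2051, 2059, 2124 and 1652 CPM, with 1754 CPM in perichondrial cells. In blood and immune cells Col6a1, Col6a2 and Col6a3 were at 681, 555 and 318 CPM. Those rankings are among the named classes, and the unnamed cluster led by Cilp, Thbs4 and Itih5 held more of all 3 genes, with 4687, 4385 and 2745 CPM. So did an unnamed cluster of 69 cells led by Car6, Slc7a3 and Plet1, with 8013, 6471 and 3499 CPM pooled over pups. Col6a6 was highest in skeletal muscle cells, at 50.3 and 199 CPM in the WT pups and 233, 175 and 244 CPM in the mutant pups, and perichondrial cells held 129 CPM. In cells thinned to 3000 UMIs it was present in 38.9% of skeletal muscle cells, 25.7% of perichondrial cells and 1.29% of blood and immune cells.

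Type VIII collagen, which forms sheets in vessels and cornea, was highest, among the named classes, in perichondrial cells. Col8a1 was at 505 and 403 CPM in perichondrial cells of the WT pups and 632, 995 and 782 CPM in those of the mutant pups, with 216 CPM in tendon or ligament cells. The perichondrial level rested on 1 of 4 clusters, which was led by Igfbp3, Col8a1 and Epha3 and held 1361 ± 201 CPM in 3647 cells, while the other 5084 perichondrial cells held 66.8 ± 12.1 CPM. Col8a2 was at 320 ± 63.7 CPM in perichondrial and 261 CPM in tendon or ligament cells, and the unnamed cluster led by Ostn, Alpl and Lrrc15 held 427 CPM of it. The background in blood and immune cells was 37.2 CPM of Col8a1 and 47.4 CPM of Col8a2. Col26a1 was highest in skeletal muscle cells, at 221, 166, 165, 120.1 and 121 CPM, and osteoblast lineage cells held 28.3 CPM and blood and immune cells 1.07 CPM. The class means of the transmembrane genes other than Col13a1 were low: Col25a1 reached 53.5 CPM in tendon or ligament cells and 51.3 CPM in resting chondrocytes (20.9 CPM in blood and immune cells), and Col17a1 reached 15.3 CPM in skeletal muscle cells. In the tendon or ligament cluster of 484 cells Col25a1 was at 114 CPM pooled over pups. Col4a3, Col4a6, Col6a4, Col6a5 and Col7a1 stayed under 10 CPM in every named class.

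**Figure D2:**
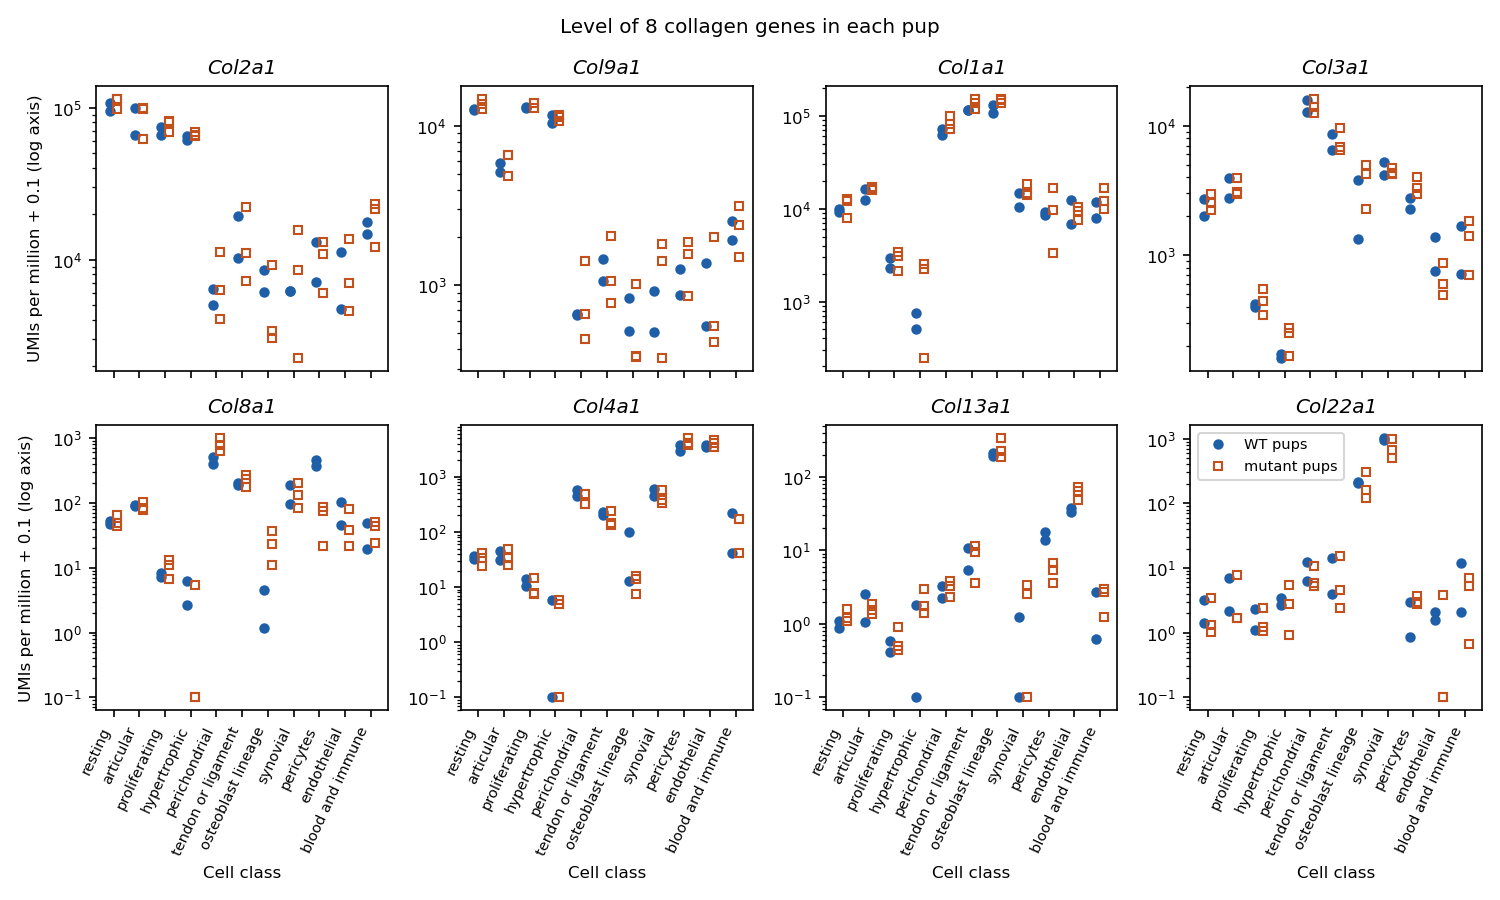
Level of 8 collagen genes in 11 cell classes for each pup, in CPM plus 0.1 on a log axis, with circles for WT pups and squares for mutant pups. Col22a1 was near 1000 CPM in synovial cells of the WT pups and Col13a1 between 185 and 336 CPM in osteoblast lineage cells, while circles and squares of the same class lay together for most genes.

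Several partner chains of the same collagen type rose and fell together over the classes, but not in a fixed ratio. Over 17 classes the correlation of log2 CPM was 0.998 for Col9a3 with Col9a1, 0.995 for Col9a2 with Col9a1, 0.977 for Col1a2 with Col1a1 and 0.969 for Col6a2 with Col6a1. It was 0.923 for Col5a2 with Col5a1 and 0.692 for Col8a2 with Col8a1. It was 0.297 for Col4a4 with Col4a3, and the member most like Col5a3 was Col4a1 (0.81). The member most like Col2a1 was Col9a3 (r = 0.981), the member most like Col3a1 was Col5a1 (0.947), the member most like Col12a1 was Col16a1 (0.927) and the member most like Col20a1 was Col28a1 (0.952). The classes share libraries, so these are descriptions.

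The ratio of Col1a2 to Col1a1 UMIs was lower in the fibrous tissue classes than in resting chondrocytes. It was 0.581 in tendon or ligament cells (0.522 to 0.642 over the pups), 0.585 in osteoblast lineage cells (0.526 to 0.650) and 0.611 in perichondrial cells (0.562 to 0.659), where the geometric mean and the range over 5 pups are given. In resting chondrocytes it was 1.32 (1.15 to 1.49), so that Col1a2 exceeded Col1a1 in every pup. Synovial cells had the lowest of these ratios, 0.418 (0.388 to 0.443), and blood and immune cells had 0.663 (0.647 to 0.715). The resting and synovial ranges lay on either side of the blood and immune range without overlap. Resting chondrocytes held 10374 CPM of Col1a1, under the blood and immune mean, and 13549 CPM of Col1a2, above the 7749 CPM of blood and immune cells.

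The type IX and type XI pairs differed in how steady they were. Col9a2 over Col9a1 was 0.298 in resting, 0.376 in proliferating and 0.377 in hypertrophic chondrocytes, and was 0.299 in tendon or ligament cells and 0.346 in blood and immune cells. Col11a2 over Col11a1 was 0.432 in all chondrocytes (0.384 to 0.490) and 0.398 in blood and immune cells (0.367 to 0.451). It was lower in perichondrial cells, 0.154 (0.107 to 0.216), and in tendon or ligament cells, 0.238 (0.173 to 0.288). In osteoblast lineage cells it was 0.229 (0.133 to 0.470), where WT pup 1 lay above the blood and immune range and the other 4 pups below it. Col11a1 over Col2a1 was 0.145 in all chondrocytes and 0.143 in blood and immune cells, and 0.339 (0.266 to 0.401) in perichondrial and 0.793 (0.293 to 1.41) in osteoblast lineage cells. In pericytes (0.140) and endothelial cells (0.145) it was close to the blood and immune ratio.

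The type IV and type VIII pairs changed sides between classes, and the type V pair did not among the named classes. Col4a2 over Col4a1 was 0.370 in pericytes (0.356 to 0.402) and 0.363 in endothelial cells (0.353 to 0.375), but 1.44 (1.26 to 1.74) in all chondrocytes, where both genes were under their blood and immune means (24.2 CPM of Col4a1 and 34.4 CPM of Col4a2 in chondrocytes) and the blood and immune ratio was 0.489 (0.347 to 0.666). Col5a2 over Col5a1 was 1.48 in perichondrial cells, 1.65 (1.43 to 1.90) in proliferating and 9.01 (5.54 to 13.9) in hypertrophic chondrocytes, where the scarcer gene had at least 31 UMIs per pup. Blood and immune cells had 1.74 (1.60 to 1.87), so that the hypertrophic range lay wholly above theirs. The hypertrophic ratio was 13.9 and 12.1 in the WT pups and 6.92, 5.54 and 9.19 in the mutant pups, without overlap (exact p = 0.2, 2-sided permutation test, a pair chosen after its values were seen). Col8a2 over Col8a1 was 0.498 (0.385 to 0.567) in perichondrial cells and 2.27 (1.98 to 2.45) in all chondrocytes, against 1.33 (1.05 to 1.80) in blood and immune cells. Col6a3 over Col6a1 was 0.260 (0.245 to 0.271) in resting chondrocytes and 0.885 (0.840 to 0.966) in pericytes.

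**Figure D3:**
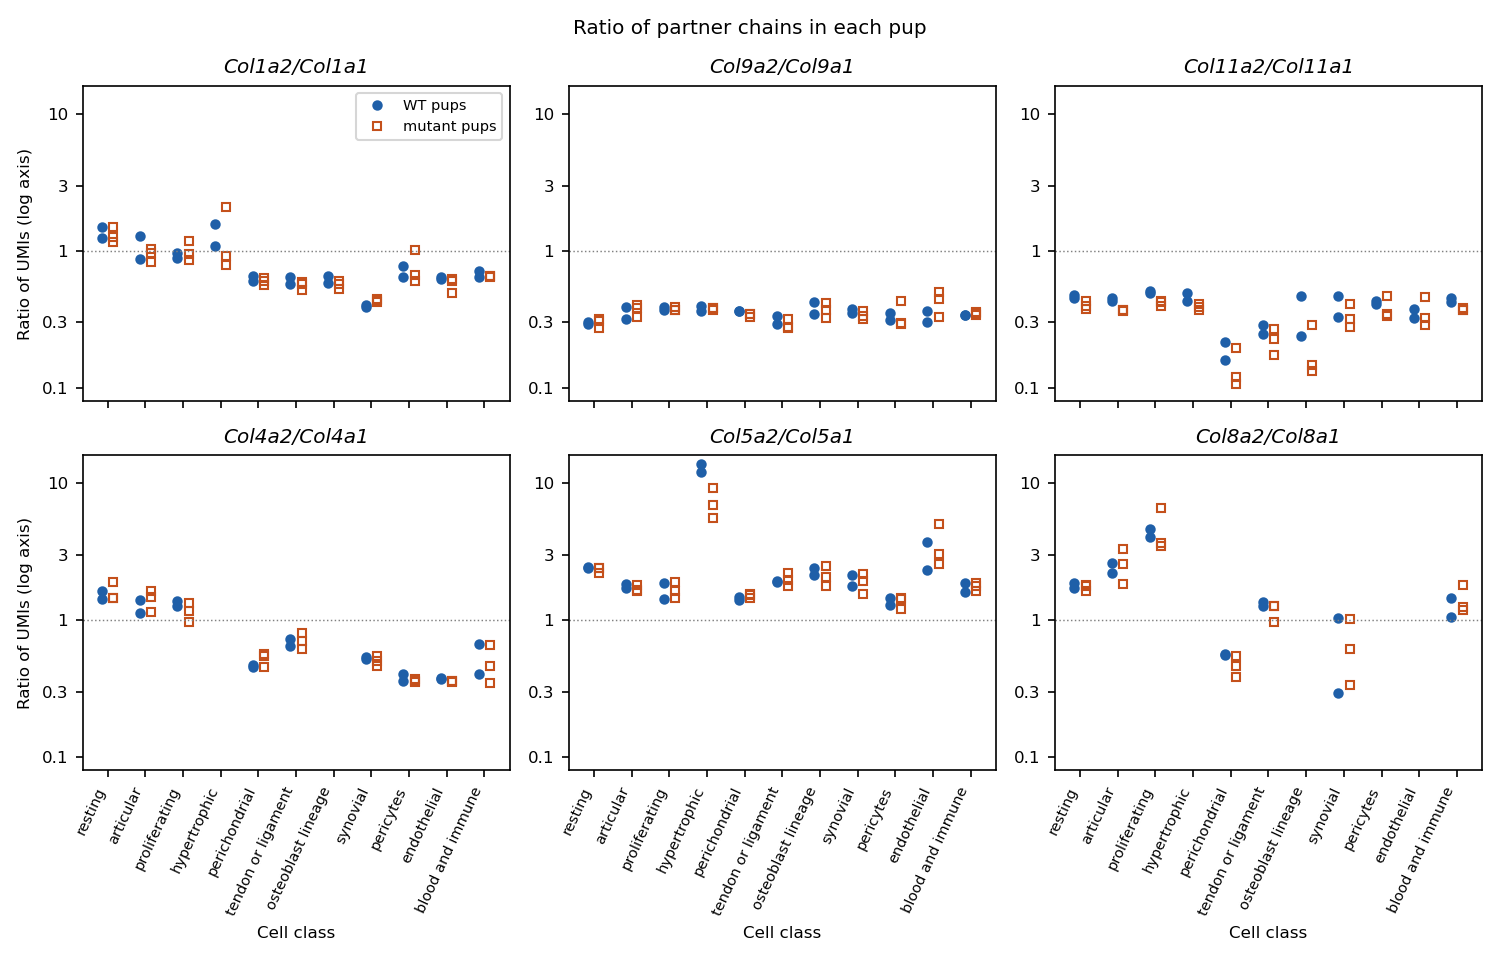
Ratio of UMIs of 6 pairs of partner chain genes in each cell class, 1 point per pup on a log axis, with circles for WT pups and squares for mutant pups. The ratio of Col5a2 to Col5a1 peaked in hypertrophic chondrocytes at 9.01, and that of Col4a2 to Col4a1 was above 1 in resting and articular chondrocytes and near 0.37 in pericytes and endothelial cells.

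In most single cells of the named connective tissue and cartilage classes, either Col2a1 or Col1a1 prevailed. Among cells with at least 20 UMIs of Col1a1 and Col2a1 together, the share that was intermediate, with Col2a1 between 20% and 80% of those UMIs, was 5.33% of proliferating, 3.01% of hypertrophic, 4.34% of perichondrial (3.29% to 7.72% over the pups), 6.09% of osteoblast lineage and 10.6% of tendon or ligament cells. It was 15.3% of resting and 27.1% of articular chondrocytes (19.6% to 33.8%). A larger share was found in an unnamed cluster of 3554 cells led by Cilp2, Grem1 and Lgr6, in which 61.7% of cells were intermediate (55.3% to 68.2%) and the median Col2a1 share was 39.4%. Its Col2a1 was at 73810 and 70559 CPM in the WT pups and 67492, 80006 and 89674 CPM in the mutant pups. Its Col1a1 was at 103134, 101473, 110862, 124887 and 116580 CPM, so both genes were far above their blood and immune means in every pup. Collagen took 29.5% of the UMIs of this cluster, more than in any named class. Macrophages were intermediate in 34.2% of 316 cells, and in the tendon or ligament cluster led by Hspa1b the share was 28.0% (19.9% to 32.4%), against 7.10% in the other tendon or ligament cells. Whether cells captured in pairs added to any of these shares was not tested cell by cell.

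**Figure D4:**
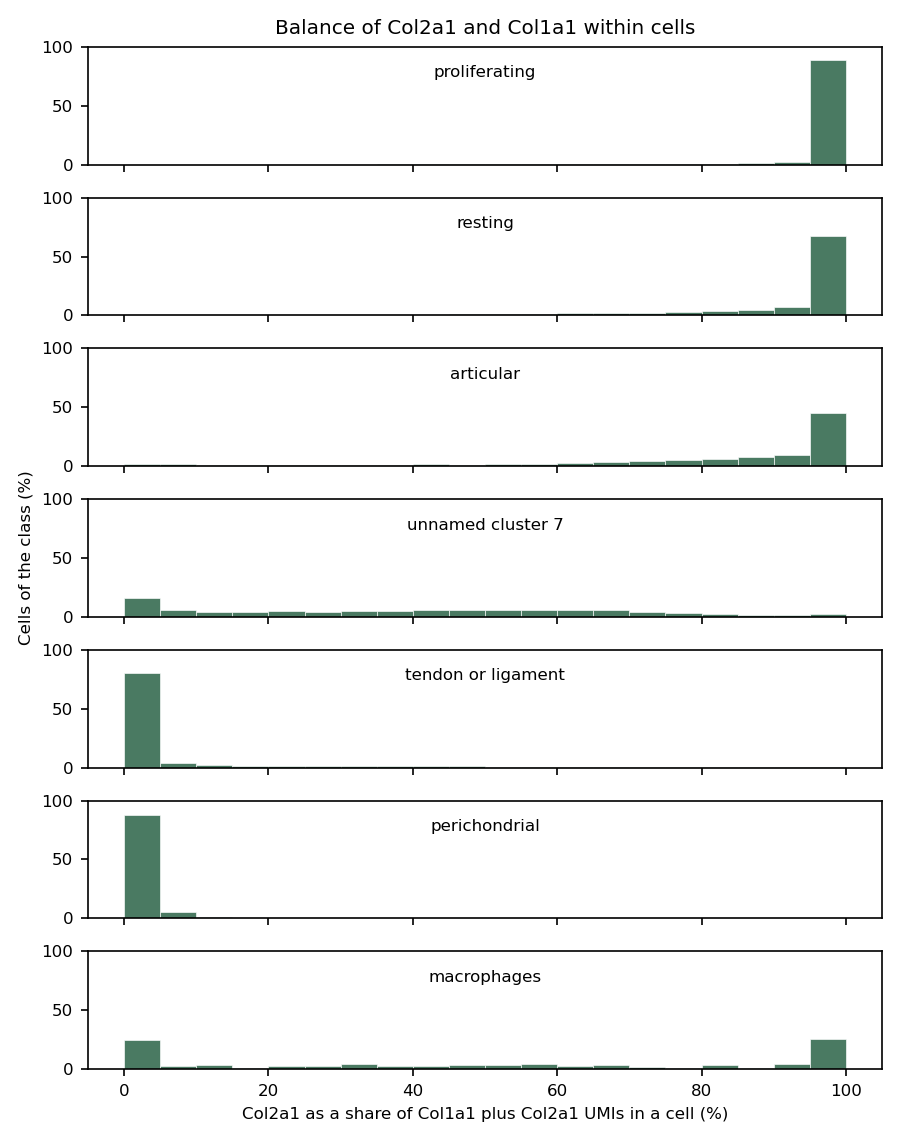
Histograms, for each cell class, of the share of Col2a1 among Col1a1 and Col2a1 UMIs per cell (horizontal axis, percent) against the percent of cells (vertical axis), over cells with at least 20 such UMIs. Named matrix-forming classes piled up at the ends, and unnamed cluster 7 filled the middle, with 61.7% of its cells between 20% and 80%.

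Collagen chains need hydroxylases, chaperones, processing proteases and cross-linking oxidases, and 31 such partner genes were followed beside the members. In all chondrocytes against perichondrial cells, 12 of the 31 were called higher and 6 lower (15.6% and 13.5% of all genes), and in osteoblast lineage against perichondrial cells 11 were higher and 2 lower (7.49% and 16.9%). Endothelial cells had 2 higher and 19 lower (12.9% and 15.1%), and pericytes 2 higher and 9 lower (11% and 10.4%). Tendon or ligament cells differed from perichondrial cells in 3 of the 31, 2 higher and 1 lower (4.22% and 5.23%). Resting chondrocytes had 4 higher and 2 lower than articular (8.02% and 2.97%), and hypertrophic had 4 higher and 5 lower than proliferating chondrocytes (8.27% and 10.5%). Of 7 collagen receptor genes (integrins and discoidin domain receptors), 2 were higher and 2 lower in chondrocytes than in perichondrial cells, against the same 15.6% and 13.5% of all genes.

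By genotype label, no member was called in any of 7 classes by edgeR at an adjusted p under 0.05, and neither was any other gene (0% of all genes tested in each class). Unadjusted p-values under 0.05 were found for 3 of 41 tested members in resting (6.64% of all genes), 0 of 41 in articular (4.60%), 5 of 42 in proliferating (4.60%) and 4 of 23 in hypertrophic chondrocytes (4.26%). The same held for 4 of 39 in perichondrial (7.76%), 0 of 40 in tendon or ligament (3.37%) and 2 of 25 in osteoblast lineage cells (2.11%). DESeq2 called 2 members, Col8a1 and Col8a2 in perichondrial cells, among 39 genes there, and 0 members in the other 6 classes. Without the filter on low counts, edgeR called 5 members in perichondrial, 2 in osteoblast lineage and 1 in hypertrophic cells, among 228, 33 and 28 genes. Pups of the labels did not overlap for 5 of 41 members in resting (24.7% of all genes), 6 of 41 in articular (21.5%), 8 of 42 in proliferating (20.6%) and 5 of 23 in hypertrophic chondrocytes (21%). The same held for 5 of 39 in perichondrial (26.3%), 3 of 40 in tendon or ligament (21.1%) and 5 of 25 in osteoblast lineage cells (19.2%). The fit was tried on simulated data, 2 pups against 3, with a log2 change of 1 in 200 genes at 20 CPM or more. Of these, 198 were recovered in resting chondrocytes, 191 in perichondrial cells and 7 in osteoblast lineage cells. False calls made up 19 of 217, 20 of 211 and 5 of 12 genes called, in the same order. The adjusted threshold is easier to pass when 200 genes change at once than when few do. The recovered counts therefore cannot show how often a lone change of that size would be called. Mutant pups 3 and 4 held Xist at 647 and 632 CPM and the other 3 pups at or under 0.223 CPM, so sex was not balanced between the labels.

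The members that DESeq2 called by label were the genes of type VIII collagen, chosen for mention after their values were seen. In perichondrial cells Col8a1 was at 493 and 385 TMM-normalized CPM in the WT pups and 629.5, 1075 and 788 in the mutant pups. The labels did not overlap, and the log2 difference was 0.92 ± 0.24 (edgeR adjusted p = 0.556, and 4.38e-09 without the filter on low counts). Col8a2 was at 279 and 216 against 344, 414 and 363 (0.59 ± 0.14, edgeR adjusted p = 0.484, and 0.000752 without the filter), again without overlap. With a term for sex the differences were 0.85 and 0.55. The cluster led by Igfbp3, Col8a1 and Epha3 made up 39.2% and 28.6% of the perichondrial cells in the WT pups and 42.2%, 55.5% and 54.1% in the mutant pups, also without overlap. The members were left out of the features used for clustering. Within that cluster Col8a1 was at 1095 and 1275 against 1417, 1643 and 1377 plain CPM, and Col8a2 at 552 and 620.1 against 709, 581 and 575, where the labels overlapped. In the other perichondrial cells Col8a1 was at 84.2 and 61.8 against 70.4, 51.1 and 66.4 plain CPM. The difference of the label's effect between perichondrial cells and all chondrocytes was tested by an interaction term, which called 3 of 18507 genes (0.0162%) and 0 of 43 members by edgeR, with 6 members and 852 genes in all at an unadjusted p under 0.05 (DESeq2 was not run for it). It was 0.73 ± 0.21 for Col8a1 (adjusted p = 0.985) and 0.43 ± 0.13 for Col8a2 (adjusted p = 0.871).

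The cartilage genes, in the cells where Col2a1-Cre acts, had small differences by label. Col2a1 differed by 0.19 ± 0.13 on the log2 scale in resting and 0.20 ± 0.11 in proliferating chondrocytes. Col11a2 in proliferating chondrocytes was at 7363 and 7193 TMM-normalized CPM in the WT pups and 6143, 5717 and 6413 in the mutant pups (-0.26 ± 0.09, adjusted p = 0.918). In hypertrophic chondrocytes it was at 7015 and 7093 against 5556, 4784 and 5293 (-0.44 ± 0.10, edgeR adjusted p = 0.950, and 0.0302 without the filter on low counts). The labels did not overlap in either class, and neither difference passed the adjusted threshold with the filter. Col9a3 in hypertrophic chondrocytes was at 4914 and 4370 against 3906, 3461 and 3654 (-0.34 ± 0.11, adjusted p = 0.974). Col27a1 in proliferating chondrocytes was at 1996 and 1901 against 2259, 2256 and 2253 (0.21 ± 0.08, adjusted p = 0.918). Col12a1 there was at 719 and 537 against 878, 902 and 864 (0.49 ± 0.13, adjusted p = 0.918). Tgfbi-expressing chondrocytes, which hold the most Col12a1 of the 3 named parts of the class, made up 21.7% and 20.6% of it in the WT pups and 34.3%, 35.0% and 34.8% in the mutant pups. Within the cluster named proliferating, Col12a1 was at 471 and 329 against 524, 620.2 and 513 TMM-normalized CPM (0.47 ± 0.17, adjusted p = 0.781), Col27a1 differed by 0.26 ± 0.10 and Col11a2 by -0.22 ± 0.09, and none of these was called.

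Partner ratios were compared between labels in the class where each pair was highest, for 9 pairs, by a 2-sided exact permutation test with 10 regroupings and a smallest possible p of 0.1. In proliferating chondrocytes Col9a3 over Col9a1 was 0.420 and 0.394 in the WT pups and 0.357, 0.314 and 0.327 in the mutant pups, a log2 difference of -0.29 (exact p = 0.1, adjusted p = 0.3). Col11a2 over Col11a1 was 0.492 and 0.507 against 0.430, 0.396 and 0.422, a log2 difference of -0.26 (exact p = 0.1, adjusted p = 0.3). Every mutant pup was below every WT pup for both pairs. In blood and immune cells the same differences were -0.25 and -0.22 (exact p = 0.1 for each). Col6a3 over Col6a1 in synovial cells differed by 0.25 (exact p = 0.1, adjusted p = 0.3), and the other 6 pairs had exact p-values from 0.2 to 1.

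The direction of the lists by label is given as a count. Of the 7 cartilage genes, 5 were higher in the mutant pups in resting, 5 in articular, 5 in proliferating and 3 in hypertrophic chondrocytes, 7 in perichondrial cells, 4 in tendon or ligament cells and 1 in osteoblast lineage cells. Of 10 genes of fibrous tissue collagens, the counts in the same order of classes were 9, 7, 10, 8, 8, 8 and 10. None of these genes was called in any class by edgeR with the filter on low counts and all pups. In perichondrial cells the cartilage genes differed by 0.09 to 0.44, and Col2a1 there was at 6290 and 4781 TMM-normalized CPM in the WT pups and 4038, 6841 and 11274 in the mutant pups, with mutant pup 5 highest. Without mutant pup 5, Col2a1, Col9a1, Col9a2, Col9a3 and Col11a2 were lower in the mutant pups, and without the 5% of cells with the highest doublet scores Col9a1 (-0.083), Col9a2 (-0.22), Col9a3 (-0.43) and Col11a2 (-0.35) were. Col1a1 in perichondrial cells was at 69915 and 59032 against 71477, 108395 and 82167 (0.44 ± 0.19, edgeR adjusted p = 0.639, and 0.0411 without the filter on low counts). Within the cluster led by Igfbp3, Col8a1 and Epha3, whose share differed by label, Col1a1 was at 100104 and 110666 plain CPM against 106194, 131983 and 107116. In the other perichondrial cells it was at 51363 and 42649 against 47082, 54304 and 50779, and the labels overlapped in both. In osteoblast lineage cells, with 14 to 157 cells per pup, Col14a1 differed by 1.42 ± 0.42 (adjusted p = 0.998) and Col8a1 by 3.89 ± 0.82 (adjusted p = 0.725, and 0.00278 without the filter on low counts, chosen after its values were seen). Col8a1 was there at 4.27 and 1.12 TMM-normalized CPM in the WT pups and 38.6, 25.3 and 11.6 in the mutant pups.

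**Figure D5:**
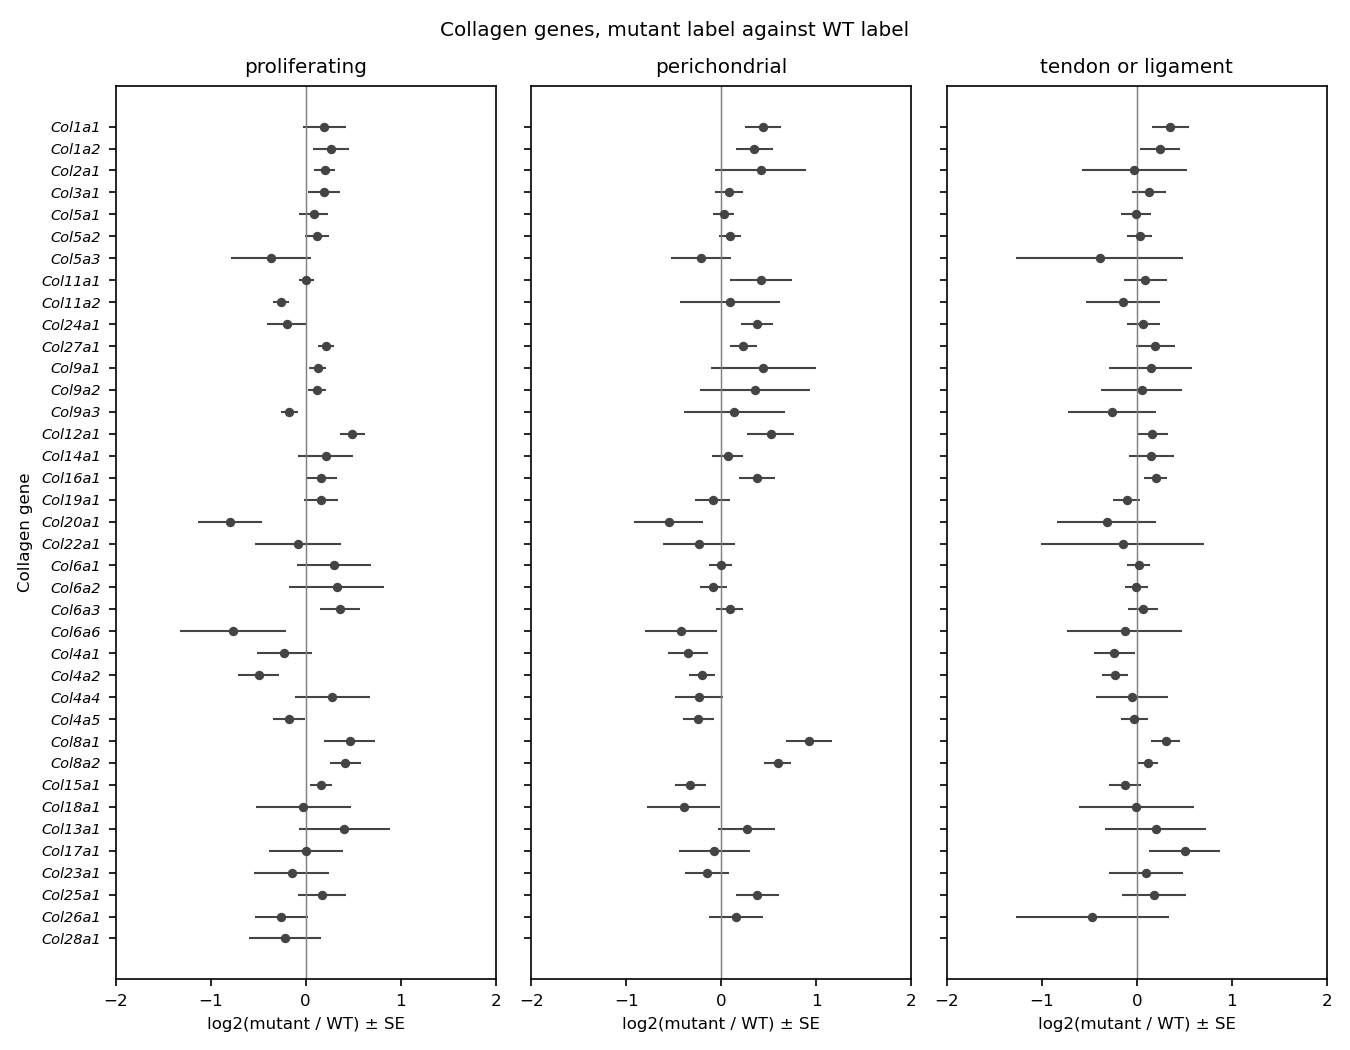
Log2 difference of mutant over WT pups (points) with its standard error (bars) for collagen genes in proliferating chondrocytes, perichondrial cells and tendon or ligament cells. Values lay on both sides of 0, and Col8a1 in perichondrial cells, at 0.92, was far to the right without passing the adjusted threshold.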

How the data were processed

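Cells of 5 libraries were read from deposited matrices of UMI counts, which the authors made by aligning reads to mm10, the build in the submitters' processing notes; demultiplexing and counting used a pipeline named in the study's methods, and the aligner and annotation are not given in the sources used here. The counts were not normalized. Cells with 200 to 6000 genes and at most 10% mitochondrial UMIs were kept. Cells were clustered without the members, but Col10a1 was not left out (scanpy 1.11.5, leidenalg 0.10.2, 3000 genes, 50 components, 20 neighbors, resolution 1.5). Clusters were named from fixed marker lists, with Col10a1 in that of hypertrophic chondrocytes. The limits for a name were set after the data were seen. Scrublet called 0 cells in 3 pups and 1.80% and 2.44% in the others, so no cell was removed. Cell indices shared between any 2 libraries numbered 3 to 7. UMIs were summed per pup and class and tested by edgeR 4.0.16 (quasi-likelihood, TMM, filterByExpr, Benjamini-Hochberg adjustment over all genes), with the pup as a block between classes, and by DESeq2 1.42.0 as an alternative. The tests were also run on simulated data, where some calls were false.

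The members and lists were chosen with earlier results of these data known. Members whose mean reached 10 CPM in any named class are named with their levels, and between labels those called and those of the cartilage and fibrous tissue lists; any other was chosen after its values were seen. Alternatives were normalization, filter, tool, a sex term, clustering, doublet scores and leaving out each pup. Each pup is 1 replicate, and p-values measure the spread between these littermates only.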

Additional observations from a re-analysis of the deposited data

Results flagged for a closer look

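The 38 described genes were examined in their highest class for a pup far from the other 4, across both labels, and 3 stood out, where chance alone marks about 1 in 20 groups. In osteoblast lineage cells, Col5a2 was at 2266 CPM in WT pup 1, which gave 14 such cells, and at 3663 to 4049 CPM in the others. In the same class Col13a1 was at 336 CPM in mutant pup 5, which gave 17 cells, and at 185 to 223 CPM in the others. In Schwann cells Col23a1 was at 45.0 CPM in mutant pup 5, which gave 8 cells, and at 0 to 9.35 CPM in the others, from 6 UMIs in all. No explanation for these values was tested.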

How the results depend on the processing

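Of 325 values recomputed under alternatives, 144 of those that left out a pup and 151 of the others were rated as the same. For a count of called members this required only a count within a fixed fold of the main one. For a partner ratio it required the same direction, with no threshold. For the log2 difference of a single gene it required the same direction and side of the threshold. Counts of members called by label, 0 in every class, changed under some alternatives. Without the filter on low counts they became 1 in hypertrophic (Col11a2), 5 in perichondrial (Col8a1, Col8a2, Col1a1, Col12a1 and Col6a5) and 2 in osteoblast lineage cells (Col8a1 and Col26a1). That setting called 28, 228 and 33 genes there in all. By DESeq2 the count became 2 in perichondrial cells (Col8a1 and Col8a2). Leaving out a pup gave 0 to 2 in hypertrophic cells (Col1a1 and Col1a2 without mutant replicate 3) and 0 to 1 in osteoblast lineage cells (Col4a1 without WT replicate 2). The 14 called between hypertrophic and proliferating cells ranged from 9 to 12 when a pup was left out and from 10 to 13 under the other alternatives. Without the 5% of cells with the highest doublet scores, an alternative chosen after seeing the data, the label difference in perichondrial cells turned to -0.083 for Col9a1, -0.22 for Col9a2, -0.43 for Col9a3 and -0.35 for Col11a2; the cause was not tested. Leaving out a pup gave -0.023 to 0.71 for Col2a1, -0.13 to 0.75 for Col9a1, -0.22 to 0.68 for Col9a2, -0.38 to 0.44 for Col9a3 and -0.45 to 0.39 for Col11a2, the lowest without mutant replicate 3. Label differences of ratios near 0 also turned: Col9a2 over Col9a1 to 0.0026 and Col6a2 over Col6a1 to 0.0032 at clustering resolution 0.8, and, leaving out a pup, -0.040 to 0.029 and -0.057 to 0.055 for these, -0.15 to 0.0098 for Col4a2 over Col4a1 and -0.24 to 0.0062 for Col5a2 over Col5a1. The hypertrophic class had no value at resolution 0.8. The proliferating class there joined only Tgfbi-expressing and prehypertrophic clusters, with none named proliferating chondrocytes. Automatic doublet calls were not used as an alternative, and the interaction had no alternatives. No called difference between classes turned direction. No paired analysis was possible because the labels pair no WT pup with a mutant pup. Small cell numbers limit the hypertrophic (29 to 106 cells per pup), osteoblast lineage (14 to 157) and Schwann classes (5 to 55).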
